A study of Drosophila simulans x Drosophila sechellia and Drosophila simulans x Drosophila mauritiana and Drosophila mauritiana x Drosophila simulans with 63 samples.

Results

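The maternal complement of the *Drosophila* egg was searched for genes whose transcript level stood apart in *D. sechellia* alone among 3 closely related species, *D. sechellia*, *D. simulans* and *D. mauritiana*. For each gene, 3 differences of log2(mean + 1) were taken between stage 2 embryos of the pure species, *D. sechellia* minus *D. simulans*, *D. sechellia* minus *D. mauritiana*, and *D. simulans* minus *D. mauritiana*. Genes had to be listed for all 3 species pairs, reach a mean of 20 scaled reads in at least 1 species, differ in the same direction from both other species in *D. sechellia*, and differ by less than 0.5 between *D. simulans* and *D. mauritiana*. Of 10464 genes listed for all pairs, 5314 reached the mean and 2200 met every criterion, with *D. sechellia* above both species in 1040 and below both in 1160. The 60 genes with the largest smaller difference are described here, 39 with *D. sechellia* above and 21 with *D. sechellia* below. The genes were thus selected on the stage 2 parental values of all 3 species, which are given as a description without a test.

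RNA was sequenced from single embryos, 63 in all. The *D. sechellia* line was wild-type, and the *D. simulans* and *D. mauritiana* lines carried *white* mutations, so each species is represented by 1 stock. Flies were kept on cornmeal medium at 25°, and eggs came from mothers aged 4 to 14 days. Stage 2 hybrid embryos were laid by F1 hybrid mothers, *sim* x *sec*, *sec* x *mau*, *mau* x *sec*, *sim* x *mau* or *mau* x *sim* (mother of the F1 named first), mated back to males of the maternal species. Stage 5 hybrids were F1 embryos of the same species crosses, at the end of cellularization. Each species and stage, and each stage 2 cross, had 3 embryos, and each stage 5 cross had 6. In the main tests, stage 5 alleles were compared in the 3 embryos labelled XX of each cross with *D. sechellia*. The stage 5 embryos of *sim* x *mau* and *mau* x *sim* entered no test. *D. sechellia* mothers were not crossed to *D. simulans* males, so the *sim* x *sec* hybrids have no reciprocal. The parental embryos appear to come from an earlier data set of the same group, so hybrid and parental embryos may differ in study as well as in genotype, and these cannot be told apart.

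A stage 2 embryo has not yet switched on its own genome, and its mRNA was made by the mother and loaded into the egg during oogenesis. When the mother is an F1 hybrid, both species' alleles were transcribed in the same ovary and met the same proteins. A difference between alleles in such eggs lies with the sequence linked to each allele, and is called *cis*. A difference between species that vanishes between the alleles of a hybrid lies with diffusible factors, and is called *trans*. By late stage 5 much of the maternal mRNA has been degraded and zygotic transcription is under way.

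Values are reads at variant sites between the species of a pair, assigned to an allele and scaled by the study, and are called scaled reads. Every embryo was aligned to both genomes of its pair. Unless stated otherwise, values per embryo come from the alignment to the genome other than *D. sechellia*, while differences average log2(scaled reads + 1) over both alignments, which lowers the difference where 1 alignment had no variant site. Sites were present in every alignment of all 3 pairs for 45 of the 60 genes. No site was available on the *D. sechellia* genome for 7 genes against *D. simulans*, and for 8 against *D. mauritiana*, all of them genes with *D. sechellia* above. Between *D. simulans* and *D. mauritiana*, 4 genes (*ppk16*, *CG17029*, *Prosalpha4T2* and *Cp7Fa*) had no site in either alignment, so their small difference in the criterion was 0 by lack of data. The difference changed sign between alignments in 2 genes, *CG42564* and *TRAM*. For *CG18048*, *LamC* and *TRAM*, *D. simulans* embryos aligned to their own genome gave 0 reads on their own allele, although the same embryos gave 8.60 to 34.4, 19.0 to 28.5 and 72.0 to 137 scaled reads when aligned to the *D. sechellia* genome. These 3 genes thus owe part of their distance from *D. simulans* to 1 alignment.

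Over the series, an embryo aligned to 1 genome held 1914846 to 7044646 reads at variant sites, and at least 98.1% of the signal of a parental embryo lay on its own allele. In stage 2 embryos the 9 germline markers summed to 34661 to 45133 scaled reads, against 6 to 111 for 11 zygotic blastoderm markers, 0 for 9 follicle cell markers and 0 to 2 for 3 yolk and fat body markers. The stage 2 label thus matched its markers. As whole embryos were sequenced and scaled, fewer cells holding a transcript and less transcript per cell cannot be told apart. A read can cover several sites, so intervals on allele shares cover counting error only.

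In the 39 genes above, *D. sechellia* eggs carried more of the transcript than eggs of either other species, in which several of these genes were at or near 0. The largest difference was that of *drl* (FBgn0015380, 2L), a Ryk-family receptor for Wnt5 known for axon guidance. *drl* had 1757, 1340 and 1517 scaled reads in *D. sechellia* embryos, against 0, 1.2 and 2.07 in *D. simulans* embryos, and 1937, 1547 and 1627 in *D. sechellia*, against 0, 0 and 0 in *D. mauritiana*. All 3 *D. sechellia* embryos were high and all 6 others near 0, a difference of 9.52 from *D. simulans* and 10.64 from *D. mauritiana* on the log2 scale. *nompB* (FBgn0016919, 2L) encodes the fly homolog of the intraflagellar transport protein IFT88, needed to build sensory cilia. It had 930, 1149 and 1184 scaled reads in *D. sechellia*, against 0, 0.598 and 1.03 in *D. simulans*, and 701, 867 and 933 in *D. sechellia*, against 0, 0 and 0.866 in *D. mauritiana*. *ppk16* (FBgn0065108, 2L), a DEG/ENaC sodium channel subunit, had 190, 214 and 294 in *D. sechellia*, against 0, 0 and 0 in *D. simulans*. *CG32191* had 151, 180 and 200 in *D. sechellia*, against 4.76, 1.2 and 2.07 in *D. simulans*. In both genes every *D. sechellia* embryo was above every *D. simulans* embryo.

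A second set among the genes above was high in *D. sechellia* embryos but varied more between them. *mtsh* (FBgn0262598, 2L), a gene known from spermatid differentiation in *D. melanogaster*, had 611, 397 and 1398 scaled reads in *D. sechellia*, against 0, 0 and 0 in *D. simulans*. *Epac* (FBgn0085421, 2R), a cAMP-activated exchange factor for Rap GTPases, had 115, 204 and 101 in *D. sechellia*, against 0, 0 and 0 in *D. simulans*. *Orct2* (FBgn0086365, 3R), an organic cation transporter, had 80.6, 195 and 102 in *D. sechellia*, against 0, 0 and 0 in *D. simulans*. The groups did not overlap in these 3 genes. *wb* (FBgn0261563, 2L), a laminin alpha chain, had 25.8, 2.54 and 56.4 in *D. sechellia*, against 0.953, 0.598 and 0 in *D. simulans*, so that 1 *D. sechellia* embryo was close to the other species. *CG4415* passed the rule through a single embryo, with 157, 0 and 0.867 in *D. sechellia*, against 0, 0 and 1.03 in *D. simulans*. Among the less extreme genes, *CG7702* had 51.5, 57.7 and 58.1 in *D. sechellia*, against 5.72, 10.2 and 10.3 in *D. simulans*. *chas* had 202, 229 and 113 in *D. sechellia*, against 49.5, 25.7 and 22.8 in *D. simulans*. Their groups did not overlap. The most abundant gene above, *Arc42* (FBgn0038742, 3R), an acyl-CoA dehydrogenase family member chosen here after its values were seen, had 4019, 3105 and 3462 in *D. sechellia*, against 673, 681 and 759 in *D. simulans*.

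In the 21 genes below, the transcript was present in *D. simulans* and *D. mauritiana* eggs and reduced, though seldom to 0, in *D. sechellia* eggs. *CG3638* (FBgn0261444, X) was the most distant, with 8.77, 20.9 and 7.8 scaled reads in *D. sechellia*, against 512, 766 and 368 in *D. simulans*, and 7.09, 15.4 and 4.96 in *D. sechellia*, against 204, 216 and 171 in *D. mauritiana*. *Galphaf* (FBgn0010223, 3L), a G protein alpha subunit, had 1.1, 4.44 and 5.2 in *D. sechellia*, against 40, 74.1 and 51.7 in *D. simulans*. *Zyx* (FBgn0011642, 4), the focal adhesion protein zyxin, had 0, 0 and 0.867 in *D. sechellia*, against 15.2, 34.1 and 33.1 in *D. simulans*. The *D. sechellia* embryos were below all *D. simulans* embryos in each. *Sod3* (FBgn0033631, 2R), the extracellular superoxide dismutase, was the most abundant gene of this kind, with 177, 119 and 78 in *D. sechellia*, against 1444, 1522 and 1584 in *D. simulans*, and 164, 117 and 82.3 in *D. sechellia*, against 1310, 1375 and 1634 in *D. mauritiana*. *DnaJ-H* (FBgn0032474, 2L), a DnaJ family co-chaperone, had 8.77, 14.6 and 13.9 in *D. sechellia*, against 107, 96.2 and 98.3 in *D. simulans*. *CG3618* had 1.65, 3.17 and 4.34 in *D. sechellia*, against 12.4, 25.7 and 19.7 in *D. simulans*. The groups again did not overlap. *CG11858* had 22.5, 24.1 and 12.1 in *D. sechellia*, against 171, 135 and 200 in *D. simulans*. *CG3566* had 24.7, 31.7 and 26.9 in *D. sechellia*, against 93.4, 117 and 118 in *D. simulans*. The tetraspanin gene *Tsp42Ef* had 103, 56.4 and 99.7 in *D. sechellia*, against 292, 320 and 371 in *D. simulans*. *Prosalpha4T2*, a testis-specific proteasome alpha subunit, could only be read on the *D. sechellia* genome, where it had 0, 0 and 0 in *D. sechellia*, against 75.3, 87.4 and 91.3 in *D. simulans*. It gave 0 on both alleles in the hybrids on that genome too, and was not tested there.

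**Figure D1:**
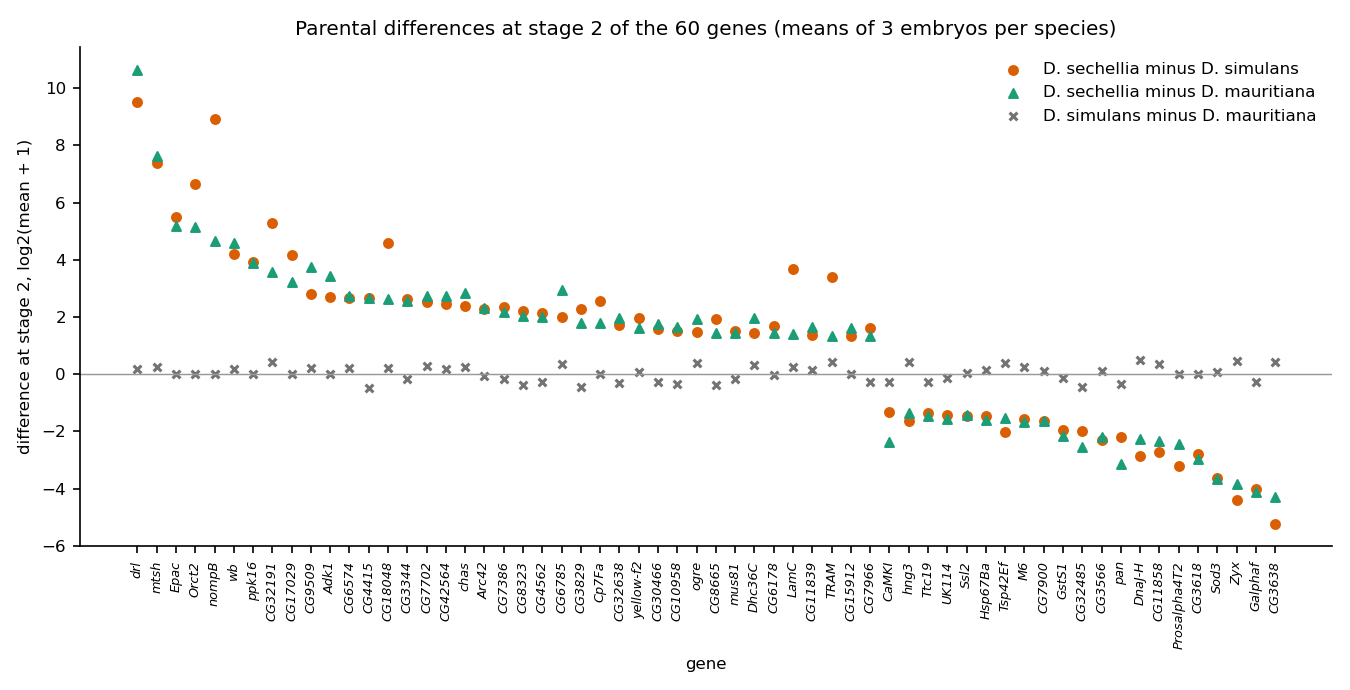
Differences of log2(mean + 1) between species at stage 2 (vertical axis) for each of the 60 genes (horizontal axis), with means of 3 embryos per species. Circles and triangles, *D. sechellia* minus each other species, lie on the same side of 0 for every gene, and crosses, *D. simulans* minus *D. mauritiana*, lie within 0.5 of 0, as the rule sets.

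At the threshold of the list, *CaMKI* (1.33) and *CG7966* (1.32) were the last genes inside and *Leash* (1.31) and *otu* (1.31) the first outside, by their smaller log2 difference. *CaMKI*, calcium/calmodulin-dependent kinase I, was uneven among embryos, with 7.13, 108 and 5.2 scaled reads in *D. sechellia*, against 61, 58 and 55.9 in *D. simulans*, so that 1 *D. sechellia* embryo was above all *D. simulans* embryos. On the limit for *D. simulans* minus *D. mauritiana*, *CG4415* (-0.49) and *DnaJ-H* (0.48) were just inside, and *CG30120* (0.50) and *CG11034* (-0.53) just outside. On the highest species mean, *Cp7Fa* (20.2) and *pan* (21.8) were just inside, and *CG10663* (19.3) and *ppk11* (18.3) just outside. The limit on *D. simulans* minus *D. mauritiana* alone kept out 91 genes and the mean of 20 alone kept out 40. The same rule turned to the other species gave 60 genes each, with 30 above and 30 below for *D. simulans* and 23 above and 37 below for *D. mauritiana*. The largest smaller difference was 9.52 in the *D. sechellia* list, beside 7.20 in that of *D. simulans* and 5.19 in that of *D. mauritiana*. The medians were 2.11, against 1.46 and 2.11. The 3 lists share parental embryos and were not tested against each other.

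The stage 2 hybrids asked whether the *sec* allele kept its distance when both alleles were transcribed in 1 mother. In most genes that could be tested it did. Values of the 2 alleles were compared within embryos by limma on log2(scaled reads + 1), with Benjamini-Hochberg adjustment over all genes tested, in embryos the rule did not use. A gene is called where its adjusted p was below 0.05. Of the 39 genes above, 30 could be tested in the *sim* x *sec* hybrids and the *sec* allele was higher in 29 of them, where 19.8% of all tested genes were called higher. Of the 21 below, 18 were tested and the *sec* allele was lower in 14, where 21.7% of all were called lower. In the hybrids of *D. sechellia* and *D. mauritiana* (3 *sec* x *mau* and 3 *mau* x *sec* embryos), the *sec* allele was higher in 26 of 27 tested genes above (31.4% of all genes) and lower in 15 of 17 tested genes below (30.6% of all genes). The median log2 difference between alleles was 1.64 above and -1.54 below against *sim*, beside -0.01 over all genes tested, and 1.77 above and -1.71 below against *mau*. A gene was tested where the mean over both alleles and both alignments was at least 5 scaled reads, with an alignment without sites counted as 0. A gene that passed through 1 allele only had to differ. *drl*, *nompB*, *ppk16*, *CG32191*, *CG7702* and *Cp7Fa* passed in this way in both comparisons. So did *chas*, *Adk1* and *CG3618* against *sim*, and *yellow-f2* and *Galphaf* against *mau*. The adjusted p of these genes, given below, adds little to their reads. Each allele reached 5 by itself in 18 of the 30 tested genes above (17 called) and 15 of the 18 below (12 called) for *sim*, and in 17 of 27 above (16 called) and 15 of 17 below (13 called) for *mau*.

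In both hybrid comparisons together, 39 genes, 26 above and 13 below, were called in the direction of the species difference. A further 4 of the 43 genes tested in both were not, 11 genes were tested in neither and 6 in 1 of them. Of the genes tested in neither, 9 were above and did not reach the minimum in hybrid eggs, so the counts leave them out. Each alignment favoured its own allele over all genes. Of all calls against *sim*, 47.8% had *sec* higher, while the alignment to *D. simulans* alone gave 28.7% and that to *D. sechellia* alone 70.1%. Against *mau* these shares were 50.6%, 35.2% on the *D. mauritiana* genome and 66.3% on the *D. sechellia* genome. Of the 48 genes tested against *sim*, 42 kept the direction of the species difference on the *D. simulans* genome and 38 on the *D. sechellia* genome. Of the 44 tested against *mau*, 42 kept it on the *D. mauritiana* genome and 37 on the *D. sechellia* genome. A gene with no variant site on a genome had a difference of 0 there and was counted as not keeping the direction.

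Among the genes above, *drl* was all but silent on the other species' alleles in the same eggs. In *sim* x *sec* hybrids it had 819, 831 and 881 scaled reads on the *sec* allele, against 0.508, 0.617 and 0.714 on the *sim* allele. In *sec* x *mau* hybrids it had 921, 887 and 875 on the *sec* allele, against 1.02, 1.98 and 0 on the *mau* allele. The *sec* share of *drl* reads was 99.9% (95% interval of a beta distribution with 0.5 read added to each allele, counting error only, 99.8% to 99.98%) in *sim* x *sec* embryos, and the log2 differences were 9.10 ± 0.13 (SE, n = 3 embryos; limma, adjusted p = 2.08e-07) and 9.25 ± 0.16 (SE, n = 6; adjusted p = 6.26e-11). *nompB* was likewise carried by the *sec* allele, with 391, 228 and 319 on *sec*, against 0, 0.617 and 0 on *sim*, a difference of 7.16 ± 0.23 (adjusted p = 3.87e-06). Against *mau* the *nompB* difference was 4.09 ± 0.12 (adjusted p = 2.21e-09), with reads from the *D. mauritiana* genome alone. Both genes passed the minimum through the *sec* allele only and had to differ.

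The channel gene *ppk16* had 92.9, 99.3 and 100 scaled reads on the *sec* allele, against 0, 0 and 0 on the *sim* allele, with differences of 3.31 ± 0.13 against *sim* (adjusted p = 7.36e-06) and 3.55 ± 0.11 against *mau* (adjusted p = 3.21e-09). Its values too rest on 1 alignment in each pair. *CG32191* had 77.2, 79.6 and 78.6 on *sec*, against 0, 0 and 0 on *sim*, with 5.57 ± 0.13 against *sim* and 2.97 ± 0.12 against *mau* (adjusted p = 1.45e-06 and 2.33e-08). Against *mau* the *CG32191* reads come from the *D. mauritiana* genome alone, where the difference was 5.94. *chas* had 57.9, 51.8 and 81.4 on *sec*, against 2.03, 1.23 and 4.29 on *sim*, with 4.20 ± 0.14 and 3.74 ± 0.12 (adjusted p = 4.51e-06 against *sim* and 4.37e-09 against *mau*). The *chas* alleles differed by more in these eggs than the species did in their own (2.40 and 2.84). *CG7702* had 26.9, 21.6 and 26.4 on *sec*, against 1.02, 0 and 2.14 on *sim*, with 3.90 ± 0.22 and 4.24 ± 0.15 (adjusted p = 3.12e-05 and 5.9e-09), also past its species differences of 2.53 and 2.74. *Arc42*, expressed from both alleles, drew 78.6% of its reads from *sec* in *sim* x *sec*, 80.4% in *sec* x *mau* and 80.2% in *mau* x *sec* embryos. *CG7966*, the last gene inside the list, differed by 0.96 ± 0.11 and 1.11 ± 0.07 (adjusted p = 0.000692 and 4.76e-07), and *Cp7Fa*, a gene of the chorion cluster region, by 2.20 ± 0.16 and 1.78 ± 0.12 (adjusted p = 7.6e-05 and 6.7e-07). *Cp7Fa* too was read on 1 alignment in each pair.

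Among the genes below, the *sec* allele was the weaker in the same eggs but contributed a visible share. *Sod3* had 379, 426 and 450 scaled reads on the *sec* allele, against 950, 1044 and 932 on the *sim* allele, a difference of -1.20 ± 0.06 (SE, n = 3; limma, adjusted p = 1.62e-05), and -2.18 ± 0.10 against *mau* (n = 6; adjusted p = 4.02e-08). The *sec* share of *Sod3* was 29.8% (95% interval of a beta distribution with 0.5 read added to each allele, counting error only, 28.7% to 30.9%) in *sim* x *sec*, 16% in *sec* x *mau* and 20.5% in *mau* x *sec* embryos. Both differences were smaller than the species differences of -3.61 and -3.68. *CG3638* had 41.1, 99.9 and 80 on *sec*, against 401, 292 and 371 on *sim*, with -2.07 ± 0.25 and -2.61 ± 0.08 (adjusted p = 0.000844 and 1.85e-09), again less than the species differences of -5.22 and -4.28. *DnaJ-H* had 5.59, 4.94 and 5 on *sec*, against 44.2, 43.8 and 29.3 on *sim*, with -2.59 ± 0.13 and -2.28 ± 0.11 (adjusted p = 1.87e-05 and 5.26e-08). This co-chaperone gene kept nearly its whole species difference. *Galphaf* differed by -2.31 ± 0.19 and -2.59 ± 0.31, *CG3566* by -2.24 ± 0.12 and -2.32 ± 0.09, *Tsp42Ef* by -2.12 ± 0.17 and -2.22 ± 0.16 and *CG11858* by -2.41 ± 0.12 and -1.71 ± 0.11, against *sim* and *mau*, with adjusted p of at most 0.000171. *CG3618* differed by -3.10 ± 0.34 against *sim* (adjusted p = 0.000499) and could not be tested against *mau*. No call of a gene named here was lost when any 1 hybrid embryo was left out of these 2 comparisons.

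Further genes above, named after their values were seen, kept the direction where they could be tested. *mus81*, a structure-specific endonuclease gene, had 1020, 984 and 1161 scaled reads in *D. sechellia* eggs, against 362, 338 and 345 in *D. simulans* eggs, and its alleles differed by 1.45 ± 0.09 from *sim* and 1.40 ± 0.04 from *mau* (SE, n = 3 and 6; limma, adjusted p = 3.7e-05 and 2.14e-09). *CG6178* had 2470, 1905 and 2358 in *D. sechellia*, against 688, 732 and 787 in *D. simulans*, and its alleles differed by 1.39 ± 0.04 and 1.15 ± 0.04 (adjusted p = 2.71e-06 and 2.48e-09). In both the *D. sechellia* embryos were above all *D. simulans* embryos. *ogre*, which encodes an innexin gap junction protein, had 88.3, 103 and 111 in *D. sechellia*, against 35.3, 32.3 and 37.3 in *D. simulans*, with allele differences of 0.65 ± 0.14 and 1.60 ± 0.26 (adjusted p = 0.00888 and 0.000374). *yellow-f2*, a dopachrome conversion enzyme gene of the melanin pathway, had 39.5, 50.7 and 50.3 in *D. sechellia*, against 13.3, 7.77 and 9.31 in *D. simulans*, with 1.38 ± 0.13 and 2.56 ± 0.16 (adjusted p = 0.000283 and 3.89e-07). All of these differences passed the threshold. *Adk1*, an adenylate kinase gene, had 87.2, 63.4 and 67.6 in *D. sechellia*, against 0.953, 1.2 and 0 in *D. simulans*, and differed by 1.46 ± 0.29 from *sim* (adjusted p = 0.0064), with reads from the *D. simulans* genome alone, but could not be tested against *mau*. *LamC* had 81.2, 94.5 and 72.8 in *D. sechellia*, against 0, 0 and 0 in *D. simulans* on its own genome, and 81, 93 and 55.5, against 26.1, 21 and 22.5 in *D. mauritiana*. Its *sec* allele gave 74.6% of *LamC* reads in *sim* x *sec*, 68.5% in *sec* x *mau* and 69.8% in *mau* x *sec* eggs. *Dhc36C*, a dynein heavy chain gene, had 42.2, 40 and 46 in *D. sechellia*, against 1.91, 10.2 and 8.28 in *D. simulans*, and did not reach the test minimum in the hybrids.

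Further genes below were likewise named after their values were seen. *Hsp67Ba*, a small heat shock gene, had 577, 322 and 479 scaled reads in *D. sechellia* eggs, against 481, 802 and 1606 in *D. simulans* eggs, and its alleles differed by -0.60 ± 0.08 from *sim* and -0.93 ± 0.16 from *mau* (SE, n = 3 and 6; limma, adjusted p = 0.00156 and 0.000496). The difference from *sim* rests on 1 alignment, at -1.22 on the *D. sechellia* genome and 0.01 on the *D. simulans* genome. *UK114*, of the RidA family of deaminases, had 172, 133 and 220 in *D. sechellia*, against 544, 453 and 703 in *D. simulans*, with allele differences of -1.40 ± 0.09 and -1.57 ± 0.06 (adjusted p = 5.65e-05 and 7.7e-09). *Ssl2*, a strictosidine synthase-like gene, had 59.8, 58.3 and 75.4 in *D. sechellia*, against 190, 211 and 220 in *D. simulans*, with -1.67 ± 0.23 and -2.53 ± 0.13 (adjusted p = 0.00149 and 7.33e-08). The groups overlapped in *Hsp67Ba*, where 1 *D. sechellia* embryo was above 1 *D. simulans* embryo, and did not overlap in *UK114* and *Ssl2*. *hng3* had 161, 200 and 163 in *D. sechellia*, against 572, 598 and 625 in *D. simulans*, with -0.97 ± 0.07 and -0.95 ± 0.06 (adjusted p = 7.05e-05 and 2.73e-07). *CG32485* had 7.13, 8.24 and 6.07 in *D. sechellia*, against 35.3, 29.3 and 39.3 in *D. simulans*, with -1.88 ± 0.22 and -1.66 ± 0.15 (adjusted p = 0.000645 and 4.32e-06). *GstS1*, a glutathione S-transferase gene, had 152, 166 and 168 in *D. sechellia*, against 694, 719 and 658 in *D. simulans*, with -1.29 ± 0.09 and -2.24 ± 0.15 (adjusted p = 6.41e-05 and 5.66e-07). In these 3 genes every *D. sechellia* embryo was below every *D. simulans* embryo.

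**Figure D2:**
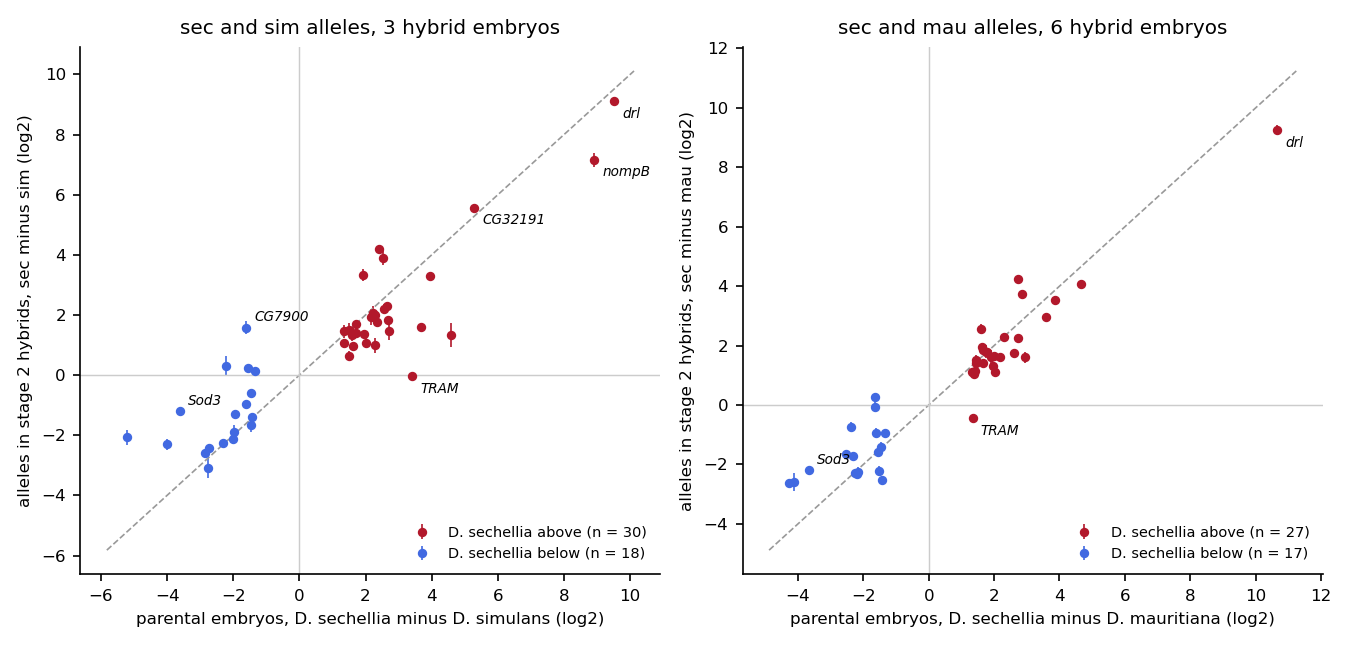
Log2 difference between alleles in stage 2 hybrid embryos (vertical axis, with its SE) against the log2 difference between the parental species (horizontal axis), for the genes tested, *sec* minus *sim* on the left (3 embryos) and *sec* minus *mau* on the right (6 embryos). Most genes lie on the same side of 0 on both axes, *drl* has the largest difference on both (9.10 and 9.25 between alleles), the dashed line marks equal differences, and *CG7900* lies on the other side of 0 on the left (1.58).

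Expressed as a part of the species difference, the difference between alleles had a median of 82.6% against *sim* (n = 48 genes tested, quartiles 50.9% and 96.2%) and 83.8% against *mau* (n = 44, quartiles 66.4% and 102%). By direction the medians were 83.7% above and 63.0% below against *sim*, and 85.8% above and 70.6% below against *mau*. These shares use the species difference that chose the genes and carry no test. They leave out the genes too low in hybrid eggs to be tested.

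A few genes did not keep the direction. *CG7900* (FBgn0037548, 3R) was lower in *D. sechellia* eggs, with 4.94, 7.61 and 3.47 scaled reads, against 14.3, 22.7 and 25.9 in *D. simulans*. In *sim* x *sec* hybrids its *sec* allele was the higher, with 12.7, 13 and 7.86 on *sec*, against 3.55, 6.79 and 2.14 on *sim*. The difference was 1.58 ± 0.20 (SE, n = 3; limma, adjusted p = 0.00104). The *sim* allele of *CG7900* had a mean of 4.16, under the minimum of 5. The gene thus passed through the *sec* allele only and had to differ. Against *mau* the *CG7900* alleles differed by -0.06 ± 0.16 (adjusted p = 0.774). *TRAM*, which encodes a protein of the endoplasmic reticulum translocation site, was above in *D. sechellia*, but its alleles differed by -0.04 ± 0.09 against *sim* (adjusted p = 0.737) and -0.44 ± 0.08 against *mau* (adjusted p = 0.000544). *TRAM* is 1 of the genes with 0 reads for *D. simulans* on its own genome, while the *sim* allele gave 102, 123 and 109 in the hybrids. *M6*, of the proteolipid protein family, was below in *D. sechellia* and differed by 0.24 ± 0.09 and 0.28 ± 0.13 between alleles, and *pan*, the TCF transcription factor of the Wnt pathway, by 0.29 ± 0.33 against *sim*. None of these 3 differences passed the threshold (adjusted p = 0.0786, 0.0971 and 0.512). *CaMKI* also missed the threshold against *sim* (0.15 ± 0.08, adjusted p = 0.173) and passed it against *mau* (-0.72 ± 0.15, adjusted p = 0.00213).

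For some genes above, the high *D. sechellia* level was hardly seen in hybrid eggs on either allele. *mtsh* had 1.02, 1.85 and 9.28 scaled reads on the *sec* allele of *sim* x *sec* embryos, 0.505% of its level in *D. sechellia* embryos. *Epac* had 22.9, 10.5 and 15, or 11.5%, with 4.08, 1.98 and 0.69 in *sec* x *mau* embryos. *Orct2* had 10.2, 6.17 and 5.71, or 5.83%. Over all genes with a *D. sechellia* mean of 20, the *sec* allele of hybrid eggs had a median of 46.2% in *sim* x *sec*, 45.4% in *sec* x *mau* and 45.6% in *mau* x *sec* embryos, of its *D. sechellia* level. The genes above had medians of 36.7%, 35.4% and 31.2% (n = 39 each). The *sec* allele was under 25% of its *D. sechellia* level in 10, 12 and 13 of the 39, against 2.23%, 3.2% and 3.54% of all genes with a *D. sechellia* mean of 20. *mtsh*, *Epac*, *Orct2*, *wb*, *CG9509*, *CG6574*, *CG4415*, *CG42564* and *Dhc36C* were under 25% in all 3 crosses. Of these genes only *CG6574* was tested in the stage 2 comparisons of *sec* with the other alleles. High *D. sechellia* values were the reason these genes were chosen, so nothing is read from this excess. *drl* stood at 54.9%, 52.5% and 56.2%.

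Of the genes below, 10 had a *D. sechellia* mean of 20, and their *sec* allele stood at a median of 81.2% of its *D. sechellia* level in *sim* x *sec*, 86.8% in *sec* x *mau* and 75.3% in *mau* x *sec* embryos. It was above 100% in 5, 4 and 3 of them. The *Sod3* *sec* allele reached 336%, 136% and 164% of its level in *D. sechellia* embryos. Over all genes with a *D. sechellia* mean of 20 the medians were 46.2%, 45.4% and 45.6%. Low *D. sechellia* values were the reason the genes below were chosen, so nothing is read from their higher percentages. These comparisons set hybrid beside parental embryos and carry no test.

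**Figure D3:**
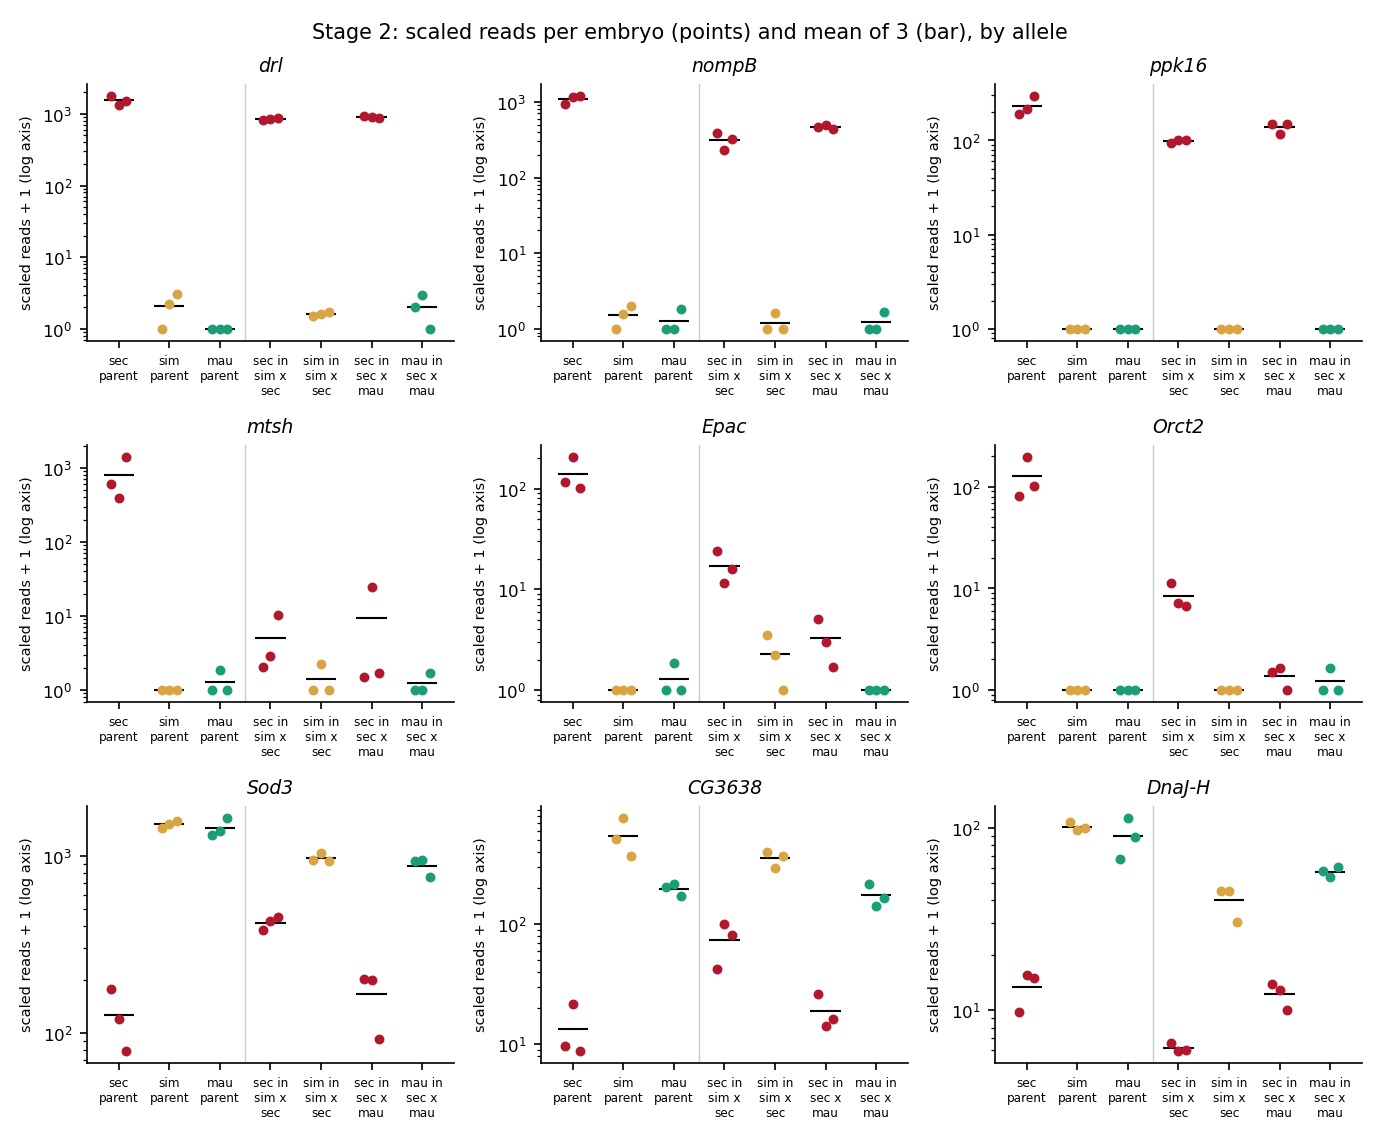
Scaled reads of 9 genes at stage 2, with each point 1 embryo and each bar the mean of 3, for hybrid alleles and parental embryos. The *sec* allele of *drl* lies at 819 to 881 in *sim* x *sec* hybrids while the *sim* allele is near 0, and the *sec* allele of *mtsh*, *Epac* and *Orct2* is far below its level in *D. sechellia* embryos.

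The sum of both alleles in hybrid eggs was classed as between the species for most genes. With a difference of 1.25-fold taken as apart, 34 of the 39 genes above lay between in *sim* x *sec*, 31 in *sec* x *mau* and 31 in *mau* x *sec* embryos, and 11, 13 and 13 of the 20 genes below that had reads. Of these, 5 in each cross were near the species with the higher level, against 1 in each cross near the lower. Where 1 species was at 0, even a few reads in the hybrid counted as between, so this class need not mean a midway level. *mtsh* was counted as between in *sim* x *sec* with a sum of 4.46, against 802 in *D. sechellia* and 0 in *D. simulans*. The classes are set in part by the parental means that chose the genes, and shares over all genes were not taken. No test was made of these classes, and nothing is read from their counts.

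Whether the *sim* and *mau* alleles of these genes were alike could be asked in *sim* x *mau* and *mau* x *sim* hybrids (3 embryos each). Of the 60 genes, 37 could be tested. The *sim* allele was higher in 5, where 26.6% of all genes were called higher, and lower in 11, where 22.6% were called lower. The rule had used the parental difference between these species, not these embryos. The differences were -1.09 ± 0.08 in *Galphaf*, -0.82 ± 0.13 in *CG3566*, 0.49 ± 0.08 in *M6* and -0.11 ± 0.03 in *Sod3* (limma, SE, n = 6; adjusted p = 4.95e-06, 0.000745, 0.000533 and 0.0107). The alleles also differed in *CG8665* (-1.64 ± 0.14), *CG8323* (-1.56 ± 0.23) and *LamC* (-0.94 ± 0.09), an A-type lamin gene, named after their values were seen. Of the 39 genes called in both *sec* comparisons, 17 were tested here and not called, 13 were called and 9 could not be tested. Here also each alignment favoured its own allele, with *sim* higher in 54.0% of all calls, 32.4% on the *D. mauritiana* genome and 73.6% on the *D. simulans* genome.

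The allele difference did not detectably depend on which species had been the grandmother. Between eggs of *sec* x *mau* and of *mau* x *sec* mothers, 0 of 44 tested genes of the list were called by limma, against 0.0782% of all genes higher and 0.0587% lower in *sec* x *mau*. At an unadjusted p under 0.05 the count was 8 of 44, *CG3638*, *Sod3*, *CG7702*, *chas*, *Cp7Fa*, *CG7900*, *CG8665* and *hng3*, beside 374 of all 5114 genes (7.31%). The edgeR quasi-likelihood test on the recovered reads also called 0 of the 44, with 6 at an unadjusted p under 0.05. For *drl* the difference between mothers was -0.31 ± 0.33 (adjusted p = 0.901) and for *Sod3* -0.54 ± 0.20 (adjusted p = 0.614). With 3 embryos on each side, smaller dependence on the mother was not detectable.

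By stage 5 the species differences of these genes had partly changed. In *D. sechellia* itself, the genes above had a median log2 change of -0.78 at stage 5 relative to stage 2, with 18 of 39 lower by over 1 and 7 higher by over 1, and the genes below had a median of 1.05, with 12 of 21 higher by over 1. In *D. simulans* the medians were 0 and -0.35, and in *D. mauritiana* 0.30 and 0.19. The stage 2 values of this change are those that chose the genes.

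Between stage 5 embryos of *D. sechellia* and *D. simulans*, 48 genes were tested. Of the genes above, *D. sechellia* was higher in 17, where 22.4% of all genes were higher, and lower in 2. Of those below, it was lower in 10, where 19.8% of all were lower, and higher in 5. Between *D. sechellia* and *D. mauritiana*, 47 were tested. *D. sechellia* was higher in 17 genes above (17.9% of all genes) and lower in 4, and lower in 9 genes below (18.9% of all) and higher in 2. Both comparisons use the same *D. sechellia* embryos. The labels give no sex for the parental embryos, so X-linked genes, among them *chas* and *CG9509*, were compared without regard to sex. The paper used only female samples for X-linked genes at this stage. The direction of stage 2 was called in both for 22 genes, 15 above and 7 below, a count without a share over all genes beside it. Genes that passed the minimum through 1 species only had to differ. Where each species reached 5 scaled reads by itself, the stage 2 direction was called in 5 of 17 genes above and 8 of 17 below for *D. simulans*, and in 7 of 18 above and 7 of 15 below for *D. mauritiana*. Of the list, 34 could be tested between *D. simulans* and *D. mauritiana*, with *D. simulans* higher in 5 (27.3% of all genes) and lower in 11 (27.5% of all).

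The genes that stayed apart at stage 5 include some with larger differences than in the egg. *CG7966* had 1348, 1108 and 1229 scaled reads in *D. sechellia* at stage 5, against 1.34, 5.58 and 0 in *D. simulans*, a difference of 8.85 ± 0.57 (SE, n = 3 each; limma, adjusted p = 2.12e-05), and 6.14 ± 0.30 against *D. mauritiana* (adjusted p = 1.39e-05). At stage 2 the last gene of the list, it had become one of the most distant. *nompB* had 2166, 3496 and 6014 in *D. sechellia*, against 6.71, 4.46 and 2.09 in *D. simulans*, with 8.98 ± 0.50 and 5.72 ± 0.36, that from *D. mauritiana* with reads from the *D. mauritiana* genome alone (adjusted p = 9.52e-06 and 2.9e-05). *mtsh* had 219, 407 and 662 in *D. sechellia*, against 8.05, 5.58 and 4.18 in *D. simulans*, with 4.58 ± 0.54 and 4.73 ± 0.83 (adjusted p = 0.00048 and 0.00325). Both were low in *D. simulans* at either stage. *CG3618* had 0, 0 and 1.77 in *D. sechellia*, against 67.1, 90.4 and 41.8 in *D. simulans*, with -5.41 ± 0.38 and -5.28 ± 0.49 (adjusted p = 3e-05 and 0.000137). It was at or near 0 in every *D. sechellia* embryo. Between *D. sechellia* and *D. simulans*, the lower species had mostly under 5 scaled reads in *CG7966*, *nompB* and *CG3618*. Genes that pass the minimum through 1 species only have to differ, so the adjusted p of these 3 adds little to their reads. *Sod3* was still lower in *D. sechellia*, with differences of -1.29 ± 0.28 and -2.07 ± 0.20 (adjusted p = 0.00797 and 0.000159).

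In 3 genes the direction was opposite to that of the egg in both comparisons. *drl* had 326, 368 and 389 scaled reads in *D. sechellia* at stage 5, against 952, 856 and 820 in *D. simulans*, and 409, 342 and 387 in *D. sechellia*, against 724, 601 and 626 in *D. mauritiana*. The *D. sechellia* embryos were below all others, with differences of -1.15 ± 0.14 and -0.89 ± 0.15 (SE, n = 3 each; limma, adjusted p = 0.000542 and 0.0026). Near 0 in eggs of *D. simulans* and *D. mauritiana*, *drl* was thus abundant in both at stage 5. *DnaJ-H* had 23.9, 30 and 33.7 in *D. sechellia*, against 12.1, 11.2 and 14.6 in *D. simulans*, and 49.1, 29 and 59.7 in *D. sechellia*, against 5.81, 13.9 and 15 in *D. mauritiana*, higher by 1.31 ± 0.30 and 1.94 ± 0.44 (adjusted p = 0.0113 and 0.0102). On the *D. sechellia* genome alone the *DnaJ-H* difference from *D. simulans* no longer passed the threshold. *CG32485*, named after its values were seen, differed by 2.88 ± 0.28 and 2.65 ± 0.38 (adjusted p = 0.000193 and 0.00118).

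**Figure D4:**
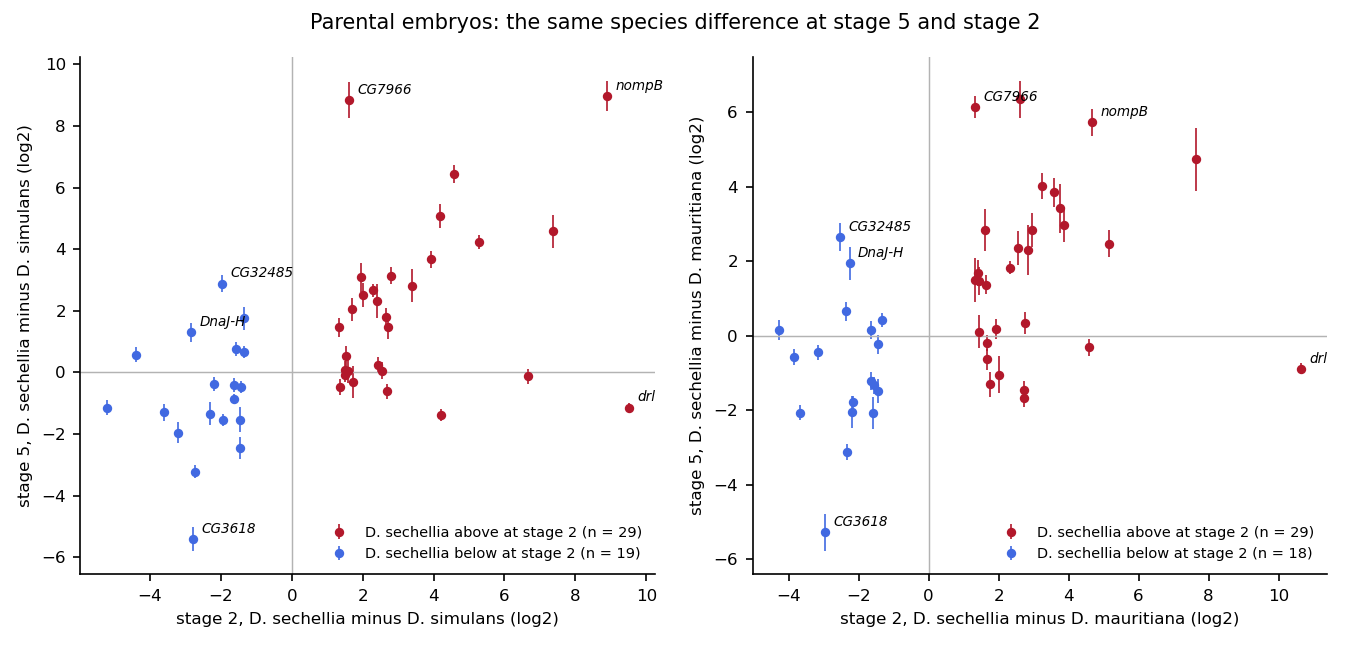
Log2 difference between species at stage 5 (vertical axis, with its SE from limma) against that at stage 2 (horizontal axis), *D. sechellia* minus *D. simulans* on the left and minus *D. mauritiana* on the right, for the genes tested at stage 5. *CG7966* and *nompB* lie far above 0 at stage 5 (8.85 and 8.98 on the left), and *drl* lies below 0 (-1.15 and -0.89) despite its large stage 2 difference.

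Before the alleles of stage 5 hybrids are described, the XX and XY labels of these embryos were checked by the share of X-linked reads from the father, which an XY embryo lacks. The *sim* x *sec* embryos labelled XX had 19.5% to 23.1% paternal X reads and those labelled XY 0.421% to 0.613%, and the *sec* x *mau* embryos 20.6% to 23.8% and 2.17% to 2.53%. In the *mau* x *sec* cross, 4 of the 6 embryos went against their labels. Embryos 4 and 5, labelled XX, had 0.813% and 10.9%, and embryos 2 and 3, labelled XY, had 19.9% and 20.2%, while their autosomes had 19.2% to 20.5% paternal reads. The embryos labelled XX were kept for the main tests, and X-linked results are given with and without embryos 4 and 5.

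Stage 5 hybrids hold maternal mRNA of 1 species only, besides zygotic mRNA of both alleles. In *sim* x *sec* hybrids, all from *D. simulans* mothers, the *sec* allele was higher in 5.11% of all genes and lower in 64.3%. Of the 18 genes above tested there, *sec* was higher in 3 and lower in 9, and of the 18 below, lower in 14 and higher in 2. In the hybrids with *D. mauritiana*, whose mothers were of either species, the *sec* allele was higher in 21.7% of all genes and lower in 16.2%. It was higher in 15 and lower in 3 of the 28 genes above, and lower in 3 and higher in 3 of the 18 below. Where each allele reached 5 scaled reads by itself, the stage 2 direction was called against *sim* in 1 of 13 genes above and 7 of 11 below, and against *mau* in 5 of 17 above and 1 of 14 below. The other genes passed the minimum through 1 allele only and had to differ. The *D. mauritiana* genome alone gave *sec* higher in 46.8% of all calls and the *D. sechellia* genome alone in 67.1%, beside 57.3% in the average. Of the 9 X-linked genes tested, 1 was called in the stage 2 direction, against 3 of 8 with all 6 embryos per cross and 2 of 8 with *mau* x *sec* embryo 6 as the only embryo of its cross. Away from the X, 17 of 37 were called in the stage 2 direction and 6 in the opposite, against 13 and 5 of 36 with embryo 6 alone. *CG3638*, an X-linked gene below, differed by -2.14 (adjusted p = 0.0904) in the labelled embryos, 0.17 with all 6 and -0.18 with embryo 6 alone.

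*Orct2*, *nompB*, *CG3618*, *CG18048*, *CG11858* and the heat shock gene *Hsp67Ba* were called in the stage 2 direction in both comparisons. *drl*, *CG6574*, *DnaJ-H* and *CG32485* were called in the opposite direction in both. The *sec* allele of *drl* differed by -0.71 ± 0.10 from *sim* (SE, n = 3; limma, adjusted p = 0.000779) and by -0.57 ± 0.06 from *mau* (n = 6; adjusted p = 0.0015). Against *sim*, with *D. simulans* mothers only, the median over all genes tested was -0.93 and 64.3% were called lower. The *drl* difference from *sim* was thus smaller than that of the median gene, and a call of *sec* lower there was common. *DnaJ-H* differed by 1.55 ± 0.47 and 3.12 ± 0.31 (adjusted p = 0.025 and 0.00134). The call of *DnaJ-H* against *sim* was lost without *sim* x *sec* embryo 6, where the difference was 0.90. That of *CG3618* against *mau* was lost without *mau* x *sec* embryo 4 (-1.43), *mau* x *sec* embryo 5 (-1.42) or *sec* x *mau* embryo 4 (-1.56).

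Both reciprocal crosses were made between *D. sechellia* and *D. mauritiana*, so each allele could be read at stage 5 with either species as the mother. In several genes the reads followed the mother. Mean scaled reads of *nompB* (3 embryos labelled XX per cross, *D. mauritiana* genome) were 1604 on the *sec* allele and 0.951 on the *mau* allele with *D. sechellia* mothers, and 51.4 and 0 with *D. mauritiana* mothers. The *sec* allele of *nompB* was thus far higher when the mother was *D. sechellia*. *CG7966* had 978 on the *sec* allele and 0.438 on the *mau* allele with *D. sechellia* mothers, and 2.6 and 23.1 with *D. mauritiana* mothers. *mtsh* had 313 on the *sec* allele and 0 on the *mau* allele with *D. sechellia* mothers, and 4.27 and 5.09 with *D. mauritiana* mothers. These genes above showed the *sec* allele mainly when it came from the mother. *CG32191* had 239.9 on the *sec* allele and 0.438 on the *mau* allele with *D. sechellia* mothers, and 2.6 and 2.01 with *D. mauritiana* mothers. Among the genes below, *Sod3* had 635 on the *sec* allele and 2.35 on the *mau* allele with *D. sechellia* mothers, and 4.55 and 1481 with *D. mauritiana* mothers, so either allele was found nearly only when maternal. *GstS1* had 909 on the *sec* allele and 3.35 on the *mau* allele with *D. sechellia* mothers, and 5.65 and 4226 with *D. mauritiana* mothers. These genes were given as examples, and *drl* differed from them. It had 243 on the *sec* allele and 359 on the *mau* allele with *D. sechellia* mothers, and 189.6 and 309 with *D. mauritiana* mothers. The *mau* allele of *drl* was the higher under either mother. Other genes of the list also had a similar or higher *sec* allele with *D. mauritiana* mothers. With *D. sechellia* and *D. mauritiana* mothers in turn, the *sec* allele had 78.4 and 134 in *Orct2*, and 178 and 241 in *wb*. It had 45.9 and 49.7 in *CG18048*, and 145 and 140 in *pan*. Genes of either kind were not counted over the list. The difference between mothers was not tested at stage 5.

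**Figure D5:**
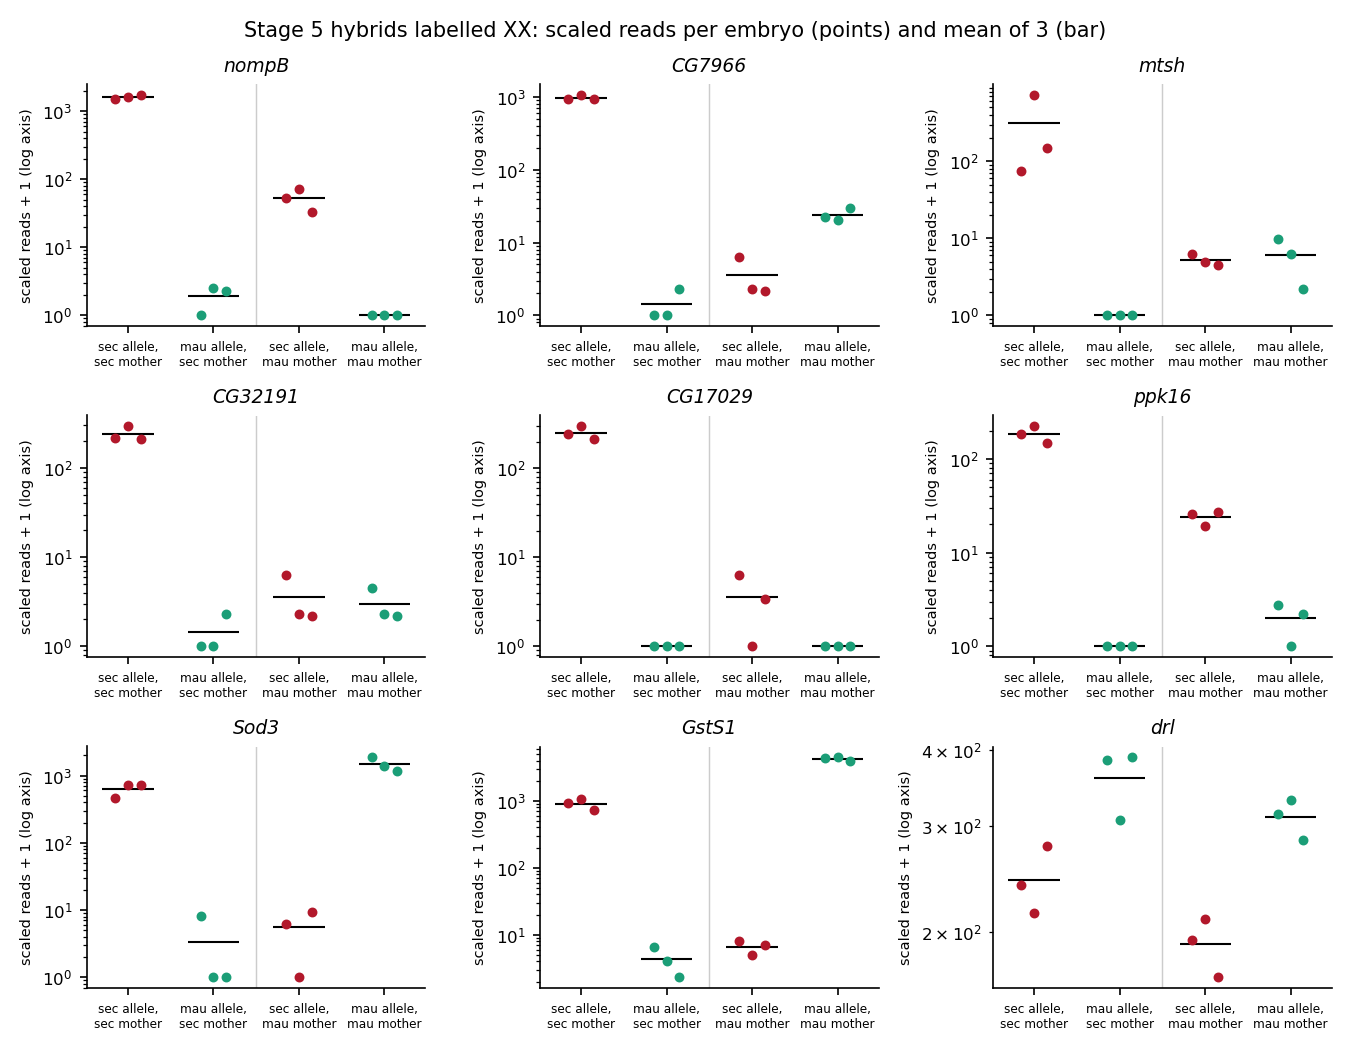
Scaled reads plus 1 (log axis) of 9 genes in stage 5 hybrids labelled XX of *D. sechellia* and *D. mauritiana*, by mother and allele, with each point 1 embryo and each bar the mean of 3. The *sec* alleles of *nompB*, *CG7966* and *mtsh* are highest with *D. sechellia* mothers, *Sod3* and *GstS1* follow the mother on both alleles, and *drl* shows both alleles under both mothers.

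On the *D. melanogaster* arms given in the files, 11 of the 60 genes were on the X, 12 on 2L, 9 on 2R, 11 on 3L, 14 on 3R and 3 on 4. The fourth chromosome genes, *Zyx*, *pan* and *CaMKI*, were all below and made up 5% of the list, where 34 genes, or 0.640%, of the genes with a mean of 20 lie on that chromosome. Each of these 3 dropped out of the list in some of the settings that left out 1 parental embryo. None was called in both *sec* comparisons of stage 2 hybrids. *CG18048* and *CG42564* lie 28.4 kb apart and *CG4562* and *Arc42* 12.3 kb apart on 3R, and *TRAM* and *mus81* 5.84 kb apart on the X, by positions whose build was not given in the sources used here. All 6 were above. Few genes of the pathway lists examined are in it. None of 29 germ plasm and patterning genes, 18 piRNA pathway genes, 69 ribosomal protein genes, 25 cleavage cycle genes, 10 innate immunity genes, 6 histone and chromatin genes, 5 serine protease genes and 2 early zygotic genes with a mean of 20 was among the 60. Of 30 detoxification genes only *GstS1* was, and of the eggshell genes the only one with that mean, *Cp7Fa*. The *sec* share of *GstS1* reads was 28.9%, 21.6% and 15.9% in *sim* x *sec*, *sec* x *mau* and *mau* x *sec* eggs. With 60 of 5314 genes chosen, these counts of 0 say little of any one group.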

How the data were processed

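RNA from single *Drosophila* embryos had been sequenced by the authors as poly(A) libraries. Per the labels and the methods, reads were trimmed with cutadapt 1.7.1, aligned with TopHat2 2.0.13 to both genomes of a species pair, assigned to alleles at variant sites called with GATK, and summed per gene. The deposited tables hold this signal per gene, allele, embryo and alignment after upper quantile scaling by the authors. They are not raw counts. Dividing each column by its smallest step gave whole reads for 100% of values (tolerance 0.01 read) in 162 combinations of embryo and alignment. Each combination held 1914846 to 7044646 reads. The build of the *D. melanogaster* positions was not given in the sources used here, and 0 columns belonged to other samples.

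Genes were compared with limma 3.58.1 (trended empirical Bayes) in R 4.3.3 on log2(value + 1), averaged over both alignments, within embryos for hybrid alleles and between embryos for species. Fold changes are on this scale, which understates the change of low genes. Genes with a mean of at least 5 over both alleles or species, and over both alignments, were tested. The p-values were adjusted by Benjamini-Hochberg over all genes tested, and 0.05 was the threshold. Alternatives were edgeR 4.0.16 on the recovered reads of 1 alignment per pair, scaling by TMM or DESeq2 1.42.0 size factors, and each alignment alone. Others were a pseudocount of 5, a minimum of 0 or 20, a replicate block, all 6 stage 5 embryos, and each embryo left out. The fit with *mau* x *sec* embryo 6 alone was added after the data were seen. Embryos of a group may share parents or vials, so the p-values measure the spread between these embryos. The lowest chi-square per gene between embryos of a group was 2.29, so no embryo was a copy of another. Simulated reads with known differences were also put through the tests, for 1 alignment only and with a fixed spread. They held no alignment bias, so its effect on the calls was not checked in this way. Tables and figures were made with Python 3.11.15, numpy 2.4.6, pandas 2.3.3, scipy 1.17.1 and matplotlib 3.10.9.

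The genes and gene lists were chosen with earlier results of these data known. Genes named in the text were the 8 above and 8 below with the largest smaller difference, up to 6 per direction with the largest differences in both hybrids, those called in the opposite direction or not called in either hybrid, and those next to a threshold. Others are said to be named after their values were seen.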

Additional observations from a re-analysis of the deposited data

Results flagged for a closer look

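*drl* and *DnaJ-H* were on opposite sides at the 2 stages in every embryo. *drl* was above in all 3 *D. sechellia* embryos at stage 2, and at stage 5 it differed by -1.15 from *D. simulans* and -0.89 from *D. mauritiana* on the log2 scale, with every *D. sechellia* embryo below every embryo of the other species. *DnaJ-H* was below in all 3 *D. sechellia* embryos at stage 2, and at stage 5 it differed by 1.31 from *D. simulans* and 1.94 from *D. mauritiana*, with every *D. sechellia* embryo above the others. The difference between stages was not tested, and the stage 2 side had been used to choose the genes.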

How the results depend on the processing

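Of the values of named genes under the alternatives, 1958 kept their direction and their side of the threshold, 68 no longer passed it, 26 newly passed it and 2 turned round. The 2 were *CG3638* in *sim* minus *mau* hybrid alleles on the *D. mauritiana* genome alone (-0.0066) and *TRAM* in stage 5 embryos, *D. sechellia* minus *D. simulans*, on the *D. sechellia* genome alone (-0.48). With no minimum, 27 of the 60 genes were called between *sec* and *sim* alleles at stage 2, against 43, and 841 of all genes, against 2247. On the *D. sechellia* genome alone, 16 were called between *D. sechellia* and *D. mauritiana* at stage 5, against 26. The list itself kept 35 genes with the minimum asked in each species pair, 31 with a limit of 0.25 between *D. simulans* and *D. mauritiana*, 38 on the *D. sechellia* genome alone and 40 on the other genomes alone. The median share of the parental difference was 90.3% on the *D. sechellia* genome against *sim*, and 77.1% on the *D. mauritiana* and 90.8% on the *D. sechellia* genome against *mau*. The causes were not tested.

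Leaving out 1 embryo kept 50 to 55 genes of the list, and gave 42 to 44 calls among the 60 for *sec* minus *sim* and 41 to 42 for *sec* minus *mau* hybrid alleles at stage 2, 14 to 17 for *sim* minus *mau*, and 0 for the difference between mothers. At stage 5 it gave 24 to 29 calls in each comparison of *D. sechellia* with another species, 15 to 18 between *D. simulans* and *D. mauritiana*, 16 to 17 for *sec* minus *sim* alleles and 16 to 20 for *sec* minus *mau* alleles. The replicate numbers did not pair the embryos (correlations of same-numbered embryos from -0.03 to 0.20). With the replicate block, 27 genes were called in *D. sechellia* minus *D. simulans* at stage 5 and 26 in *D. sechellia* minus *D. mauritiana*, as without it, 17 in *D. simulans* minus *D. mauritiana*, against 16, and 0 between mothers. The edgeR fits used the recovered reads of 1 alignment per pair, to *D. simulans*, or to *D. mauritiana* for *sec* minus *mau*. At stage 2 edgeR called 2923, 3399 and 3083 genes in the *sec* minus *sim*, *sec* minus *mau* and *sim* minus *mau* hybrid alleles, and 42, 41 and 21 of the 60. The first named allele was higher in 28.9%, 35.3% and 73.3% of all these calls, beside 47.8%, 50.6% and 54.0% by limma on both alignments. Between mothers edgeR called 13 of all genes, against 7 by limma. Each alignment alone gave 0, no minimum 2, and 4 were called without *sec* x *mau* embryo 2.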

Other observations

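In stage 5 hybrids of *D. sechellia* and *D. mauritiana*, the *sec* minus *mau* difference of X-linked genes moved with the choice of *mau* x *sec* embryos. *CG10958* differed by -2.12 in the embryos labelled XX, -0.02 with all 6 embryos per cross and -0.12 with *mau* x *sec* embryo 6 alone. *ogre* differed by -2.58, 0.09 and 0.03, *TRAM* by -1.44, 0.09 and -0.24, and *CG15912* by -0.10, 1.13 and 0.92. *CG9509*, above in *D. sechellia* eggs, differed by 1.99, 2.14 and 2.18, with its *mau* allele near 0, so that it passed the minimum through the *sec* allele only. The fit with embryo 6 alone was chosen after the data were seen, and its lone embryo was assumed to vary like those of the other cross.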
